A study of Mus musculus with 27 samples.

Results

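The genes described here are the mitochondrial ribosomal protein genes of the mouse heart, taken as every symbol in the deposited mRNA table that begins with Mrpl or Mrps. They number 76 of the 8987 genes in the table. Messenger RNA had been sequenced from the left ventricle of 11 adult FVB mice, either wild type (WT) or caPI3Kalpha. The latter carry a transgene for a constitutively active PI3Kalpha, a kinase known for its part in healthy heart growth. Ventricles were taken 7 days after surgery, which was either sham or a tightening of the aortic arch (transverse aortic constriction, TAC) that puts the ventricle under pressure load. The groups were WT sham (4 mice, numbered 6, 7, 13 and 15), WT TAC (3 mice: 1, 17 and 19), caPI3Kalpha sham (2 mice: 5 and 8) and caPI3Kalpha TAC (2 mice: 11 and 211). The sources used here do not say which promoter drives the transgene or in which cells it is active. Each library came from 1 mouse, and values are RPKM as deposited (reads per kilobase of transcript, scaled to the reads of the library), so levels of different genes are set side by side per length.

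Mitochondria translate the few proteins encoded by their own DNA, all of them parts of the respiratory chain complexes and the ATP synthase, on a ribosome of their own. Its RNAs come from mitochondrial DNA, but all its proteins are encoded in the nucleus, made in the cytosol and imported. The large subunit joins amino acids into protein, and the small subunit reads the messenger. Part of the proteins have counterparts in bacterial ribosomes and the rest are found in mitochondrial ribosomes alone. Heart muscle is among the tissues richest in mitochondria, and inherited defects of several of these proteins, MRPL3 and MRPL44 among them, are known to cause cardiomyopathy in infants.

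By their place in the ribosome 49 genes encode large subunit proteins and 26 small subunit proteins. Mrps30 and Mrps18a count among the large subunit, where the proteins sit despite their names. By origin 46 encode proteins of bacterial type and 29 proteins specific to mitochondria. The remaining gene, Mrps36, is named as a small subunit gene, but its product is now known as a part of the alpha-ketoglutarate dehydrogenase complex, and it is counted in neither subunit. All 76 genes had a value in every library and none was removed by the filter on low values.

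Factors known to act at the promoters of nuclear genes for mitochondrial proteins include NRF1, the ETS factor GABP, YY1 and ERR alpha. The letters of their usual motifs were looked for on both strands of RefSeq promoter windows (GRCm38.p6, 250 bases before to 50 after a gene's start), which were found for 67 of the 76 genes. The NRF1 letters (GCGCA and GCGC with any single base between them) occurred in 12 of the 67 genes (17.9%), against 12.5% of the 6445 genes in the mRNA table that have a window. The ETS letters CCGGAAG occurred in 24 of the 67 (35.8%, against 21.0% of the table's genes), the YY1 letters AANATGGC in 20 (29.9%, against 10.9%) and CCAAT in 27 (40.3%, against 42.3%). GGGCGG, the letters bound by SP1, occurred in 33 (49.3%, against 71.6%) and CACGTG, the E-box, in 5 (7.46%, against 12.5%). The ERR letters TNAAGGTCA occurred in none of the 67 genes, and in 0.946% of the table's. Counted by window, since some genes have more than 1, the shares in the 73 windows of these genes and in all 32851 windows of the annotation were 16.4% and 4.6% for NRF1, 32.9% and 8.86% for ETS, 27.4% and 6.05% for YY1, 41.1% and 37.4% for CCAAT, 52.1% and 35.7% for SP1, 9.59% and 7.15% for the E-box, and 0% and 1.28% for ERR. None of these strings of letters contains another. These shares describe the letters in the windows. They do not show that a factor binds there. Stretches of the promoters of genes whose values are described below are shown, 5′ to 3′ on the gene's own strand, for the NRF1, ETS and YY1 letters, the 3 whose share exceeded that of the table's genes. Capitals mark the motif on either strand, and positions are GRCm38.p6. The YY1 letters contain ATG, and in the stretches shown they begin after the gene's start, at base 28 for Mrpl42 and base 7 for Mrpl18. Whether such letters are part of a translation start was not tested.
Mrpl12, NRF1, chr11:120484546-120484575, plus strand: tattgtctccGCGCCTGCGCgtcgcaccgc
Mrpl30, NRF1, chr1:37890384-37890413, plus strand: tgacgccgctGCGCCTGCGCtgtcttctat
Mrpl44, NRF1, chr1:79775973-79776002, plus strand: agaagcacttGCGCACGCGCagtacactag
Mrps9, NRF1, chr1:42851218-42851247, plus strand: tgggaggtctGCGCCTGCGCagtctccagg
Mrps21, NRF1, chr3:95871586-95871615, minus strand: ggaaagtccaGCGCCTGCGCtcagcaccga
Mrpl33, ETS, chr5:31613937-31613966, plus strand: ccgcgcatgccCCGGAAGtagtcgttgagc
Mrpl34, ETS, chr8:71464878-71464907, plus strand: aactacagctcCCGGAAGgccccgcggcaa
Mrps16, ETS, chr14:20393546-20393575, minus strand: ttgggggcgctCTTCCGGgcttcaggctct
Mrpl42, YY1, chr10:95501904-95501933, minus strand: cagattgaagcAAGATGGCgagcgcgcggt
Mrpl18, YY1, chr17:12916067-12916096, minus strand: tacccacagttAACATGGCtgcgactagtt

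Some of these genes start close to a gene on the other strand. Of the 67 genes with a RefSeq window, 25 lie head to head with a neighbour on the other strand, with starts within 1000 bases. For 17 of them that neighbour is also in the mRNA table under the same symbol. Genes without a window were not searched, and the share over all genes was not counted. Examples are Mrps12 with Sars2, which encodes the mitochondrial seryl-tRNA synthetase, Mrpl47 with Ndufb5, a complex I subunit gene, and Mrpl46 with Mrps11, both of the set described here. Overlap with a gene that the table lists under the same symbol was found for 10 (Mrpl14, Mrpl18, Mrpl2, Mrpl24, Mrpl37, Mrpl44, Mrpl49, Mrps23, Mrps25 and Mrps7). The table keeps older symbols for some genes, so these counts can miss neighbours. Mrpl43, for example, overlaps and lies head to head with Twnk, which the table lists as Peo1. The sources used here do not say whether the authors' counting used the strand. For these 10 and Mrpl43 the reads of the gene and of its overlapping neighbour therefore cannot be told apart. The same holds for overlaps with protein-coding genes that the table does not list under the same symbol. Such overlaps were also found for Mrpl19, Mrpl21, Mrpl27, Mrpl48, Mrpl53, Mrps18a, Mrps2 and Mrps6.

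Across the table the RPKM of a library summed to between 202916.4 and 212396.3, and read depth is unknown. Pik3ca, which encodes the expressed subunit, averaged 7.12 RPKM for WT sham, 7.53 for WT TAC, 155 for caPI3Kalpha sham and 106 for caPI3Kalpha TAC, which follows the labels. The first principal component of all 8987 genes held 52.0% of the variance and divided the libraries into a first set (the 4 caPI3Kalpha libraries, WT sham 6 and WT TAC 1) and a second set (WT sham 7, 13 and 15 and WT TAC 17 and 19). The labels do not give these sets, and all caPI3Kalpha libraries fall in the first. Results that this division touches are given also with the set added to the model (the set term), or within each set. As the sets were made from the same values, the term is a description of how the results depend on them. The source name of WT sham 15 carries another animal's number, and its title was followed.

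Most of the genes were expressed at moderate levels. Mean RPKM over the 11 libraries had a median of 17.0 for the 76 genes, with quartiles of 11.4 and 25.2, against 6.95 for all genes of the table. The large subunit genes had a median of 18.7 RPKM and the small subunit genes 15.4. For comparison, the median level was 29.8 RPKM for 79 cytosolic ribosomal protein genes and 131 RPKM for 38 subunit genes of complex I, the respiratory chain complex to which the mitochondrial ribosome supplies several subunits. How reads that fit more than 1 place were counted is not given, so these levels are compared only as deposited. The 76 genes together took between 0.692% and 0.855% of a library's summed RPKM.

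**Figure D1:**
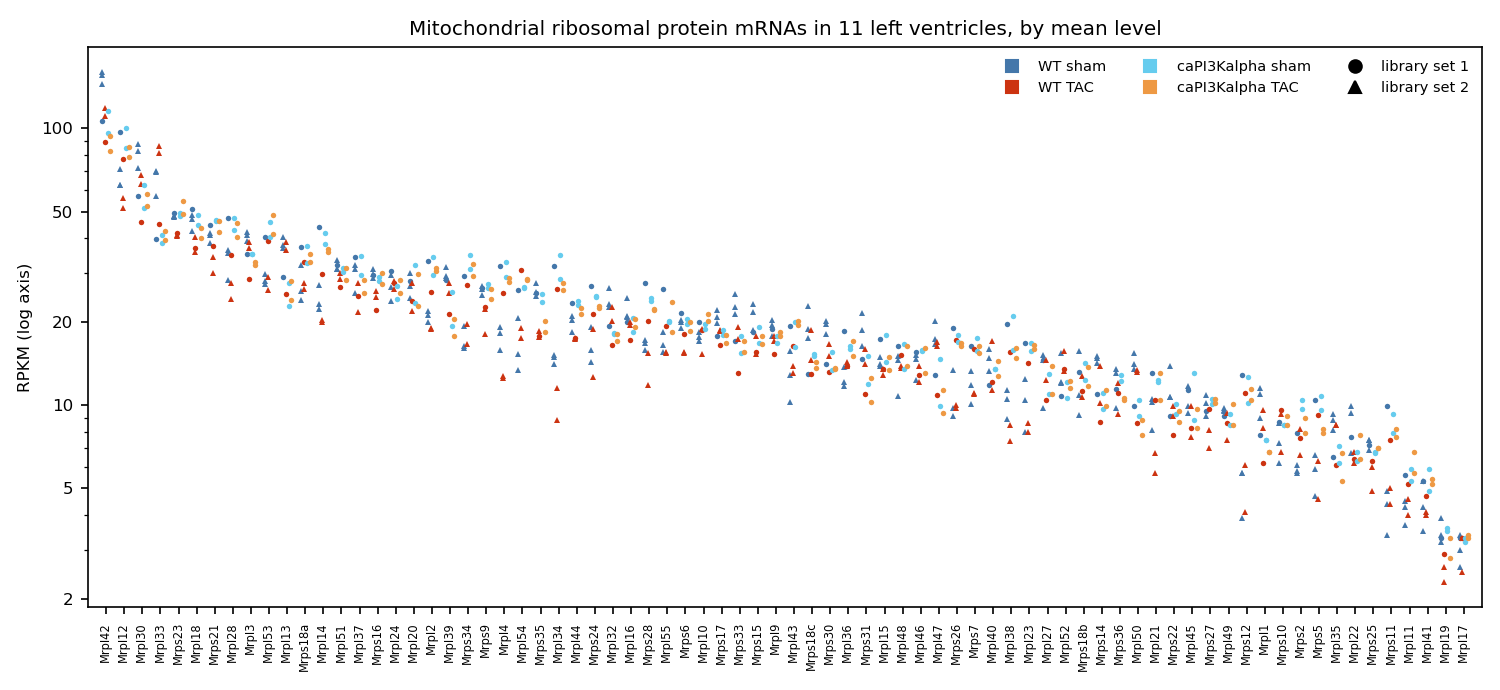
RPKM (log axis) of each of the 76 genes in each of the 11 libraries, with genes ordered by their mean from Mrpl42 on the left to Mrpl17 on the right, colours for the 4 groups and symbols for the library set (circles first, triangles second). For many genes, such as Mrpl34 and Mrps12, circles and triangles of the 2 WT colours stand apart.

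Mrpl42, a large subunit gene specific to mitochondria, had the highest level, with a mean of 115.6 RPKM. It read 106.2, 156.0, 144.3 and 158.9 RPKM for WT sham 6, 7, 13 and 15, 89.1, 110.4 and 118.6 for WT TAC 1, 17 and 19, 114.9 and 96.2 for caPI3Kalpha sham 5 and 8, and 94.0 and 83.0 for caPI3Kalpha TAC 11 and 211. The libraries are given in this order throughout. Its highest values were those of the 3 WT sham libraries of the second set, and the ranges of WT sham and WT TAC overlapped through WT sham 6.

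Mrpl12 followed with a mean of 75.23 RPKM. Its product is a protein of the stalk that recruits translation factors, and it is also known to bind the mitochondrial RNA polymerase. It read 97.1, 71.0, 62.3 and 62.6 RPKM for WT sham, 77.1, 51.6 and 56.1 for WT TAC, 100.3 and 84.9 for caPI3Kalpha sham, and 85.7 and 78.8 for caPI3Kalpha TAC. Here the libraries of the first set were the higher ones in both WT groups. Mrpl10, which anchors the same stalk, had a mean of 18.73 RPKM, and Mrpl11, at its base, 5.055 RPKM.

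Mrpl30 averaged 63.64 RPKM, Mrpl33 55.49 and Mrps23 47.12, the last being the highest of the small subunit. Mrps23 was also among the steadiest within groups, with 49.3, 47.8, 48.0 and 48.2 RPKM for WT sham, 41.9, 41.0 and 40.9 for WT TAC, 48.0 and 49.5 for caPI3Kalpha sham, and 54.6 and 49.1 for caPI3Kalpha TAC. The 3 WT TAC values lay below those of the 8 other libraries.

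At the low end Mrpl17 averaged 3.145 RPKM, Mrpl19 3.164, Mrpl41 4.782, Mrpl11 5.055 and Mrps11 6.600. Mrpl17 read 3.3, 3.4, 2.6 and 3.0 RPKM for WT sham, 3.3, 2.5 and 3.3 for WT TAC, 3.2 and 3.3 for caPI3Kalpha sham, and 3.3 and 3.4 for caPI3Kalpha TAC. At these levels the single decimal of the deposited values is a sizeable part of the differences between libraries. The 3 genes related to bacterial S18 stood at different levels, with means of 31.26 RPKM for Mrps18a of the large subunit, 16.05 for Mrps18c and 12.32 for Mrps18b, both of the small subunit.

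The ratio of a gene's highest to its lowest library had a median of 1.70 over the 76 genes, against 1.94 over all genes. It ran from 1.25 for Mrpl51 to 3.94 for Mrpl34, whose values were 31.9, 14.1, 14.9 and 15.2 RPKM for WT sham, 26.2, 8.8 and 11.5 for WT TAC, 34.7 and 28.6 for caPI3Kalpha sham, and 27.7 and 26.1 for caPI3Kalpha TAC. The 6 libraries of the first set all lay above the 5 of the second for this gene.

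The comparison of WT TAC with WT sham asks what 7 days of pressure load do to the ventricle. For the mitochondrial ribosome 64 of 76 genes had an estimate below 0 and 12 above, with a median log2 change of -0.19, while the median of all 8987 genes was 0.17 and 28.2% of them lay below 0. Only Mrps35 fell past the threshold, an adjusted p of 0.05 in limma over all genes, and none rose. Of all genes 2.85% passed lower and 13.6% higher, and 1 of 76 is not above that share. The number lower was 6 without WT sham 6 (4.38% of all genes) and 7 without WT TAC 1 (3.54%). At an unadjusted p under 0.05 in limma there were 17 of the 76 in either direction, against 31.4% of all genes, and from 9 (without WT sham 15) to 22 (without WT sham 6) with 1 library left out. The 31.4% belongs to the fit of all 11 libraries, and the share in the other fits is not given here. In whole ventricle RNA, fewer cells of a type and less RNA per cell cannot be told apart.

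**Figure D2:**
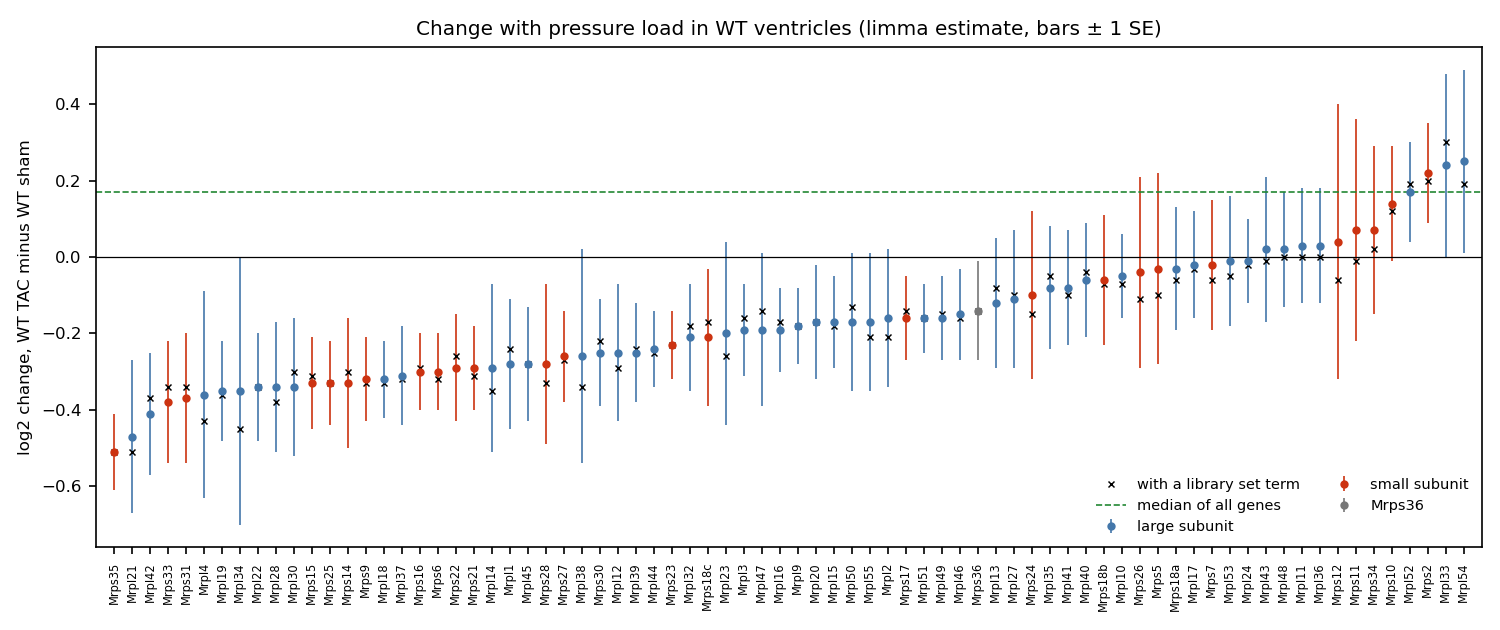
Estimated log2 change, WT TAC minus WT sham, with bars of 1 standard error, for each of the 76 genes in order of size, coloured by subunit, with crosses for the estimate that includes a term for the library set and a dashed line at the median of all genes (0.17). Estimates run from -0.51 for Mrps35 to 0.25 for Mrpl54, and 64 lie below 0.

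Mrps35 encodes a small subunit protein specific to mitochondria. It read 25.3, 25.7, 24.8 and 27.5 RPKM for WT sham (25.8 ± 1.18, SD, n = 4) against 17.7, 18.5 and 17.6 for WT TAC (17.9 ± 0.493, SD, n = 3). The groups did not overlap. The log2 change was -0.51 (SE 0.10), a ratio of 0.701 on the scale of RPKM + 0.5, with a limma adjusted p of 0.00524. It was the same with the set term (-0.51, adjusted p = 0.000251 in limma) and of like size inside each set, at -0.50 and -0.51. In the first set alone it did not pass (limma adjusted p = 0.134).

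The next 5 genes by p did not pass, with limma adjusted p between 0.0572 and 0.0678. Mrpl18, a large subunit protein of bacterial type that is known to help bring 5S RNA into human mitochondria, read 51.0, 46.8, 48.6 and 42.4 RPKM for WT sham against 36.8, 35.8 and 40.4 for WT TAC (log2 -0.32, SE 0.10). Mrps16, a small subunit protein of bacterial type, read 29.6, 28.7, 29.7 and 31.1 RPKM for WT sham against 22.0, 25.9 and 24.6 for WT TAC (log2 -0.30, SE 0.10). In both genes every TAC heart lay below every sham heart.

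Mrps25, specific to mitochondria, read 7.2, 7.5, 7.5 and 6.9 RPKM for WT sham against 6.3, 4.9 and 6.0 for WT TAC (log2 -0.33, SE 0.11). Mrps6 went from 21.5, 19.0, 19.9 and 20.3 RPKM to 18.0, 15.4 and 15.5 (log2 -0.30, SE 0.10), and Mrps9 from 26.4, 26.2, 25.0 and 27.0 RPKM to 22.7, 22.2 and 18.0 (log2 -0.32, SE 0.11). In all 3 genes, too, the WT groups did not overlap. Of the 6 genes with the smallest p, Mrpl18 alone belongs to the large subunit.

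For 15 genes all 3 WT TAC values lay below all 4 WT sham values, and for 0 genes above. Of all genes 4.65% were separated in the lower direction and 18.9% in the higher. The 15 were Mrpl15, Mrpl16, Mrpl18, Mrpl19, Mrpl39, Mrpl44, Mrpl51, Mrps15, Mrps16, Mrps21, Mrps23, Mrps25, Mrps35, Mrps6 and Mrps9. The differences were small for most of them: Mrpl51, for example, stood at 31.9 ± 1.14 RPKM (SD, n = 4) for WT sham against 28.4 ± 1.56 (SD, n = 3) for WT TAC. For Mrpl44, a large subunit protein that resembles an RNase III enzyme, the 3 WT TAC values were 17.5, 17.5 and 17.3 RPKM, below 23.4, 20.3, 18.4 and 20.9 in WT sham.

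In the large subunit 42 of 49 genes had estimates below 0 with a median of -0.17, and 0 passed. In the small subunit 21 of 26 lay below 0 with a median of -0.24, and 1 passed. Proteins of bacterial type and those specific to mitochondria had medians of -0.19 (39 of 46 below 0) and -0.17 (24 of 29 below 0). The difference between these classes was not tested.

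Of the 12 genes with an estimate above 0, Mrpl54 stood at 0.25 (SE 0.24), Mrpl33 at 0.24 (SE 0.24), Mrps2 at 0.22 (SE 0.13), Mrpl52 at 0.17 (SE 0.13) and Mrps10 at 0.14 (SE 0.15), none past the threshold. Mrpl33, a small protein of bacterial type in the large subunit, read 39.8, 57.1, 69.4 and 70.2 RPKM for WT sham against 45.1, 85.9 and 81.3 for WT TAC. Within each library set its TAC values were the higher ones.

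Scaling of the table touches the size of this pattern. With library medians centred the median of all genes in this comparison moved from 0.17 to -0.02, and that of the 76 genes from -0.19 to -0.38. With quantile normalization they stood at -0.03 and -0.32. The median of the 76 lay below 0 in all 3 scalings, with 73 genes below 0 centred and 72 with quantile normalization. Library medians were 6.4 to 6.7 RPKM in WT sham and 7.5 to 7.7 in WT TAC. Centring therefore lowers every estimate of this comparison, and quantile normalization lowered the median of all genes alike. Neither is a separate test that the estimates lie below 0. Of the 12 genes above 0, Mrps2, Mrpl33 and Mrpl54 kept an estimate above 0 in both, and Mrpl52 with quantile normalization alone. Past the threshold and lower were 19 of the 76 centred (6.79% of all genes) and 10 with quantile normalization (4.88% of all genes), with Mrps35 among them in both.

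Markers of some other cells moved in the same comparison. For endothelium 4 of 5 markers had estimates above 0 (median 0.09, against 0.17 for all genes), and 1 passed higher. With library medians centred their median was -0.10. Of 2 blood markers and 3 atrial muscle markers 0 passed. The summed RPKM of 6 fibroblast markers was between 282.3 and 377.1 in WT sham and between 703.6 and 802.5 in WT TAC, and 4 of the 6 passed higher. For 7 macrophage markers the sum was between 37.5 and 58.7 in WT sham and between 93.6 and 141.0 in WT TAC, and 6 of the 7 passed higher. The 7 cardiomyocyte markers summed to between 18568.1 and 19373.1 RPKM in WT sham and between 14528.1 and 15442.1 in WT TAC. All 7 had estimates below 0 (median -0.34), and 1 passed. With quantile normalization 6 of the 7 lay below 0 (median -0.17) and 0 passed, and 5 passed lower with library medians centred or with the set term. The 3 markers of dividing cells all passed higher (median 1.90), with summed RPKM between 2.2 and 3.2 in WT sham and between 10.0 and 17.9 in WT TAC. The part of these shifts in the lower levels of the mitochondrial ribosomal protein genes was not tested.

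Per library, the share of summed RPKM held by the 76 genes was 0.837%, 0.831%, 0.781% and 0.794% for WT sham 6, 7, 13 and 15 against 0.719%, 0.692% and 0.696% for WT TAC 1, 17 and 19. The WT groups did not overlap in this share. In caPI3Kalpha sham it was 0.855% and 0.809%, and in caPI3Kalpha TAC 0.796% and 0.747%, so that both caPI3Kalpha TAC hearts lay above all 3 WT TAC hearts. The mean of log2(RPKM + 0.5) over the 76 genes was 4.25, 4.14, 4.03 and 4.12 for WT sham, 4.03, 3.95 and 3.92 for WT TAC, 4.24 and 4.16 for caPI3Kalpha sham, and 4.17 and 4.10 for caPI3Kalpha TAC. On this scale WT sham 13 was level with WT TAC 1, and the 2 WT TAC libraries of the second set were the lowest.

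**Figure D3:**
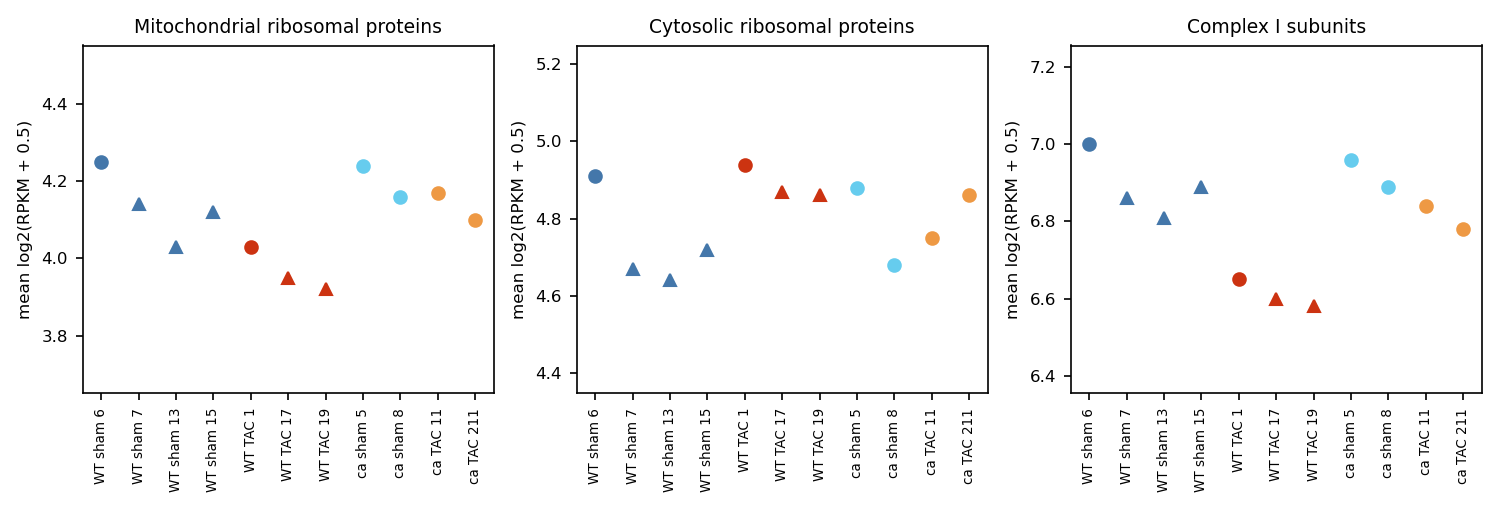
Mean log2(RPKM + 0.5) in each library over the 76 mitochondrial ribosomal protein genes (left), 79 cytosolic ribosomal protein genes (middle) and 38 complex I subunit genes (right), with circles for the first library set, triangles for the second, colours for the groups, and ca for caPI3Kalpha. The left and right panels have their lowest points in WT TAC, and in the middle panel the WT TAC points (4.94, 4.87 and 4.86) are level with WT sham 6 (4.91) and above the other WT sham points.

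The library sets were visible in these genes. WT sham 6, which belongs to the first set, lay above all 3 other WT sham libraries for 37 of the 76 genes (48.7%, against 37.2% of all genes) and below all 3 for 23 (30.3%, against 41.8%). The largest differences were those of Mrps12, which encodes the protein at the decoding centre that in bacteria carries streptomycin resistance, with 12.8 RPKM in WT sham 6 and 5.7, 5.7 and 3.9 in WT sham 7, 13 and 15. Its WT TAC values, 11.1, 6.1 and 4.1, divided in the same way, and all 4 caPI3Kalpha values were high (10.2, 12.6, 10.4 and 11.4). Sars2, the head-to-head neighbour of Mrps12, read 3.7 RPKM in WT sham 6 and 2.0, 1.9 and 1.9 in the other WT sham libraries.

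The ratio of the second set to the first in WT sham was 0.416 for Mrps12, 0.451 for Mrps11, 0.470 for Mrpl34, 0.532 for Mrpl38 and 0.553 for Mrpl14. In the other direction it was 1.63 for Mrpl33, 1.50 for Mrps18c, 1.44 for Mrpl42, 1.42 for Mrpl50 and 1.41 for Mrpl30. For these genes the spread between sets exceeds the difference between sham and TAC. For others the sets made little difference in WT sham, as for Mrps35 (ratio 1.03), Mrps16 (1.01), Mrps9 (0.987) and Mrps23 (0.974).

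**Figure D4:**
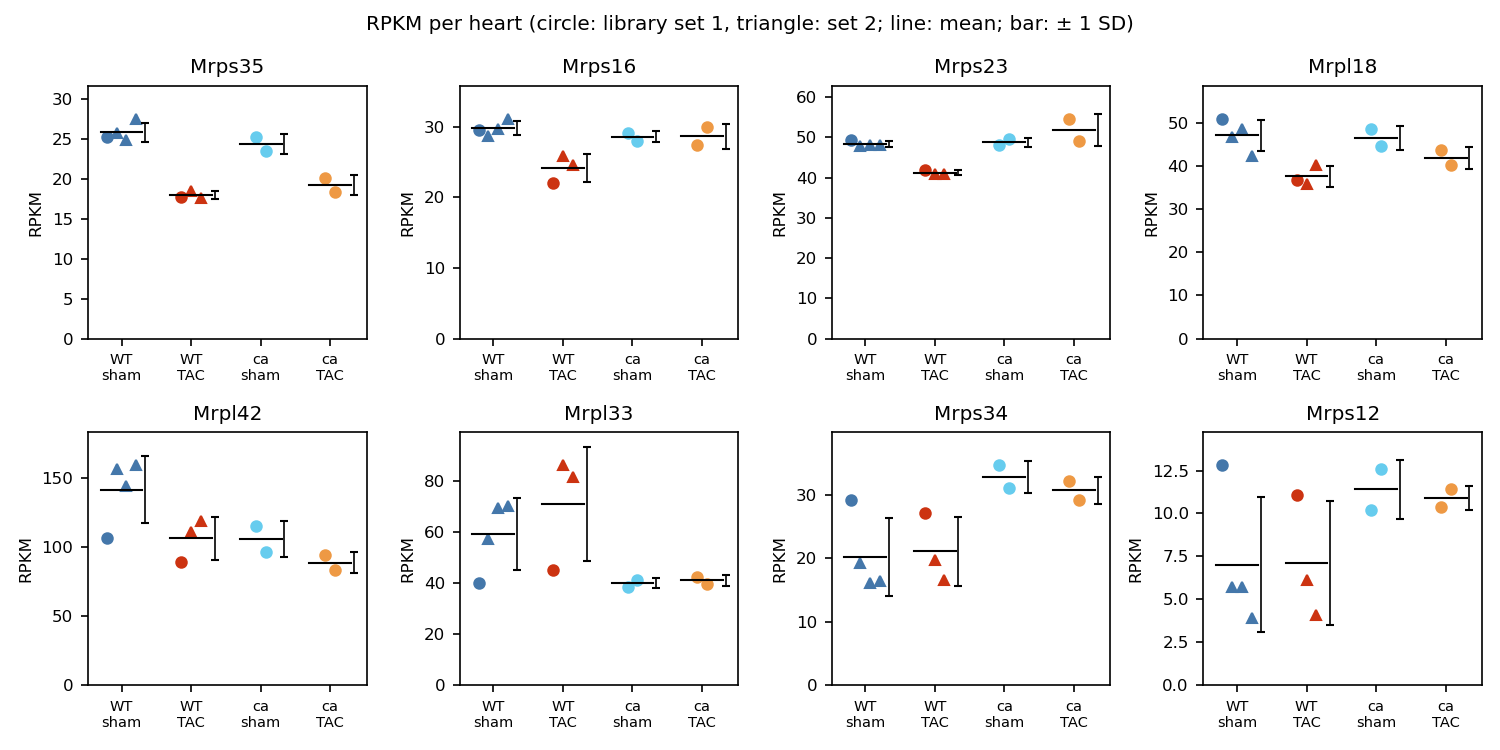
RPKM of 8 genes in each heart by group (ca stands for caPI3Kalpha), with circles for the first library set, triangles for the second, a line at the group mean and a bar of 1 SD. Mrps35, Mrps16, Mrps23 and Mrpl18 in the upper row separate WT sham from WT TAC, and in the lower row Mrpl42, Mrpl33, Mrps34 and Mrps12 differ between the sets within the WT groups.

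With the set term 27 of the 76 genes were lower in WT TAC past the threshold (35.5%), against 9.01% of all genes in the same fit, and 1 was higher, Mrpl33 (log2 0.30, limma adjusted p = 0.0133), against 33.1% of all genes. In this fit 15 of the lower genes belonged to the large subunit and 12 to the small. Those with the largest changes, beside Mrps35, were Mrpl21 (-0.51), Mrpl34 (-0.45), Mrpl4 (-0.43), Mrpl28 (-0.38) and Mrpl42 (-0.37), all of the large subunit. Mrpl4, for example, read 31.9 RPKM in WT sham 6 and 25.3 in WT TAC 1, against 19.2, 18.2 and 15.8 in WT sham 7, 13 and 15 and 12.7 and 12.5 in WT TAC 17 and 19.

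Inside the first set, where 1 WT TAC heart meets 1 WT sham heart, 68 of 76 genes were lower in WT TAC (median log2 difference -0.23, against 0.14 for all genes). Inside the second set, with 2 and 3 hearts, 62 were lower (median -0.16, against 0.18). In both sets 58 genes were lower (76.3%, against 20.1% of all genes), and 4 were higher (5.26%, against 57.7%): Mrpl33, Mrpl52, Mrpl54 and Mrps10. In the fit of the second set alone 15 genes passed lower (6.69% of all genes) and 1 higher (24.9%). There both WT TAC hearts lay below all 3 WT sham hearts for 36 genes (47.4%, against 12.4% of all genes) and above for 3, against 45.5% of all genes.

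**Figure D5:**
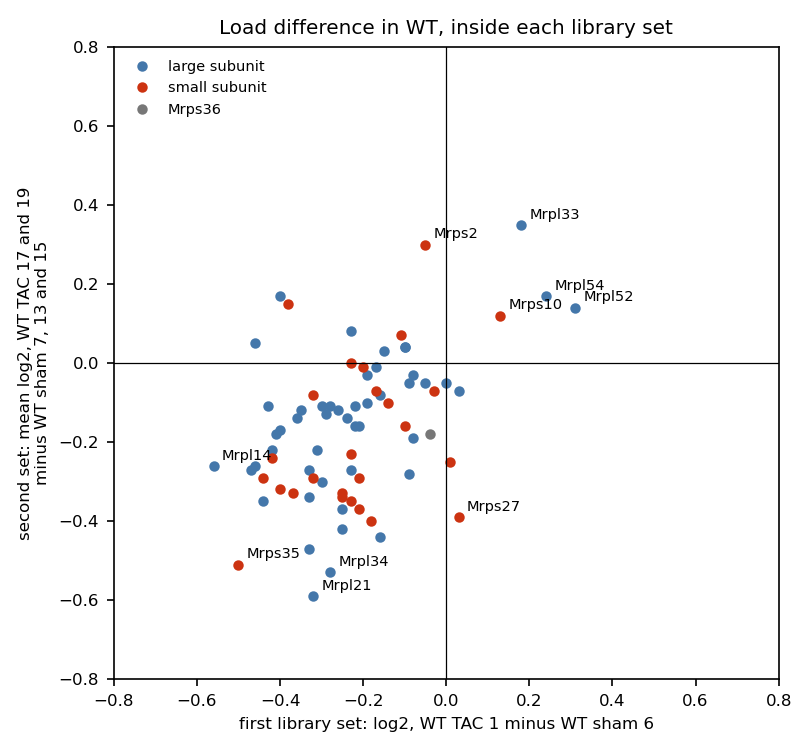
Difference in log2(RPKM + 0.5) between WT TAC and WT sham inside the first library set (horizontal axis, 1 heart of each) and inside the second (vertical axis, 2 TAC and 3 sham hearts) for each of the 76 genes, coloured by subunit. Of the points 58 lie at the lower left, where both differences are below 0, and 4 in the upper right.

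The comparison of caPI3Kalpha TAC with caPI3Kalpha sham asks what load does in the presence of the transgene, with 2 hearts a group. In limma none of the 76 genes passed, as none of the 8987 did (0% called in either direction), and 1 had an unadjusted p under 0.05, against 5.05% of all genes. Estimates were below 0 for 51 genes and above for 25, with a median of -0.06 against 0.01 for all genes. The median was -0.04 without caPI3Kalpha sham 5, -0.03 without caPI3Kalpha TAC 211 and -0.10 without caPI3Kalpha TAC 11. The gene with the smallest p was again Mrps35, with 25.2 and 23.5 RPKM in caPI3Kalpha sham and 20.1 and 18.3 in caPI3Kalpha TAC (log2 -0.34, SE 0.12, limma adjusted p = 0.766). The 2 TAC hearts lay below both sham hearts.

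For 21 genes both caPI3Kalpha TAC values lay below both sham values (20% of all genes did), and for 3 above (22.4% of all genes): Mrpl10, Mrpl54 and Mrps25. With 2 hearts against 2, such separation is common among all genes, and 21 of 76 is to be read against that share. Further genes with small p were Mrpl37 (log2 -0.25, SE 0.17), Mrps36 (-0.24, SE 0.18), Mrps2 (-0.24, SE 0.18), Mrpl39 (-0.22, SE 0.17) and Mrpl45, whose product holds the ribosome to the inner membrane (-0.25, SE 0.20). Mrpl45 read 13.1 and 8.8 RPKM in caPI3Kalpha sham and 9.7 and 8.3 in TAC. Without caPI3Kalpha sham 5 its estimate was 0.03.

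The comparison of caPI3Kalpha sham with WT sham asks what the transgene does without load. None of the 76 genes passed in limma, against 0.0111% of all genes called higher and 0% lower, and 6 had an unadjusted p under 0.05, against 13.3% of all genes. That number was 38 without WT sham 6, 23 without WT TAC 1, 3 without WT sham 15 and 2 without WT sham 7 or caPI3Kalpha sham 8. The share of 13.3% belongs to the fit of all 11 libraries. Without WT sham 6 all genes shifted too, with 11.6% past the threshold higher and 8.71% lower. The WT sham libraries left in that fit are all of the second set, and the caPI3Kalpha libraries all of the first. Genotype and library set cannot be told apart there. Estimates were above 0 for 43 genes and below for 33, with a median of 0.05 (0.01 without WT sham 13 and 0.02 without caPI3Kalpha sham 5). Mrps2, a small subunit protein of bacterial type, had the smallest p, with 10.4 and 9.7 RPKM in caPI3Kalpha sham and 7.9, 5.8, 5.7 and 6.1 in WT sham (log2 0.63, SE 0.15, limma adjusted p = 0.326). Both caPI3Kalpha values were above all 4 WT values. With the set term it stood at 0.45.

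Mrps34, which stabilizes the small subunit, read 34.7 and 31.1 RPKM in caPI3Kalpha sham and 29.3, 19.3, 16.1 and 16.4 in WT sham (log2 0.73, SE 0.24, limma adjusted p = 0.326; 0.22 with the set term). The WT sham library nearest to the transgenic ones, WT sham 6, is the one that shares their set. Of the others with small p, Mrpl39, Mrpl13 and Mrpl42 stood at -0.39, -0.51 and -0.41, and Mrpl53 at 0.47. The set term brought these to -0.26, -0.15, -0.07 and 0.09. For 5 genes both caPI3Kalpha values lay above all WT sham values (Mrpl46, Mrpl54, Mrps2, Mrps21 and Mrps34, against 9.42% of all genes) and for 6 below (Mrpl1, Mrpl13, Mrpl32, Mrpl39, Mrpl9 and Mrps25, against 10.1%). Without WT sham 6, 11 genes passed higher and 2 lower, against 11.6% and 8.71% of all genes, and within the first set alone none did.

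The comparison of caPI3Kalpha TAC with WT TAC asks how loaded hearts with and without the transgene differ. None of the 76 genes passed in limma, while 0.746% of all genes passed higher and 5.78% lower, and 14 had an unadjusted p under 0.05, against 32.8% of all genes. That number was 2 to 5 without WT TAC 19, caPI3Kalpha TAC 11, caPI3Kalpha TAC 211 or WT TAC 17, 22 without WT sham 6 and 31 without WT TAC 1. The share of 32.8% belongs to the fit of all 11 libraries. All genes shifted too, with 3.78% past the threshold higher and 17.5% lower without WT sham 6. Without WT TAC 1 these shares were 8.29% and 28.1%. The WT TAC libraries left in that fit are all of the second set, so genotype and library set cannot be told apart there. Estimates were above 0 for 56 genes, with a median of 0.14 against -0.18 for all genes. With library medians centred these medians were 0.31 and -0.01, and 2 genes passed higher (1.45% of all genes). With quantile normalization they were 0.30 and -0.02. The median of the 76 genes was 0.09 without caPI3Kalpha TAC 11 and 0.21 without caPI3Kalpha TAC 211. Both caPI3Kalpha values lay above all 3 WT TAC values for 25 genes, against 11.5% of all genes, and below for 3 (Mrpl33, Mrpl39 and Mrpl52), against 36.2%.

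Mrps23 had the smallest p here. With 54.6 and 49.1 RPKM against 41.9, 41.0 and 40.9, its log2 difference was 0.32 (SE 0.11, limma adjusted p = 0.0773). With the set term it stood at 0.30 and passed (limma adjusted p = 0.0451), the 1 gene of the 76 to do so, against 1.26% of all genes called higher in that fit. Mrps21, a small subunit protein of bacterial type, read 42.3 and 46.1 RPKM in caPI3Kalpha TAC and 37.5, 30.1 and 34.2 in WT TAC (log2 0.38, SE 0.13, limma adjusted p = 0.0822; 0.26 with the set term).

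Mrpl44 read 22.5 and 21.4 RPKM against 17.5, 17.5 and 17.3 (log2 0.32, SE 0.12; 0.24 with the set term). Larger estimates, such as those of Mrpl34 (0.93), Mrpl4 (0.81) and Mrps12 (0.69), came from genes that divide by library set, and the set term brought them to 0.12, 0.21 and -0.09. Of the 3 WT TAC libraries, WT TAC 1 alone is in the same set as the caPI3Kalpha libraries. Without it 15 genes passed higher and 5 lower, against 8.29% and 28.1% of all genes. Without WT sham 6, which enters this comparison through the pooled spread, 7 passed higher and 1 lower, against 3.78% and 17.5%.

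Cell markers differed between these groups as well. The fibroblast markers summed to 360.3 and 386.7 RPKM in caPI3Kalpha TAC, against 703.6 to 802.5 in WT TAC, and the macrophage markers to 52.2 and 63.8, against 93.6 to 141.0. The cardiomyocyte markers summed to 16280.3 and 16639.9 RPKM, against 14528.1 to 15442.1. One by one they did not share a direction: 5 had estimates above 0 and 2 below (median 0.11), and 1 passed lower. Among unloaded transgenic hearts, caPI3Kalpha sham 8 summed to 15516.6 RPKM and caPI3Kalpha sham 5 to 18548.2. The 3 dividing cell markers all passed lower, with sums of 2.9 and 2.7 RPKM against 10.0 to 17.9. In caPI3Kalpha TAC 11 the 3 atrial muscle markers summed to 54.9 RPKM and the blood markers to 379.5, against 2.6 and 15.0 in caPI3Kalpha TAC 211 and at most 12.0 and 127.5 in the 9 other libraries. Their part in the higher estimates of the mitochondrial ribosomal protein genes was not tested.

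The interaction of genotype and operation asks whether load acted differently in the transgenic hearts. None of the 76 genes passed in limma, while 0% of all genes passed higher and 0.312% lower. At an unadjusted p under 0.05 there were none of the 76 either, against 10.3% of all genes, and 5 with quantile normalization, 8 with the set term and 10 with library medians centred. The 10.3% belongs to the fit reported. With the set term all genes shifted too, with 0.835% past the threshold higher and 5.92% lower. Estimates were above 0 for 56 genes, with a median of 0.12 against -0.16 for all genes. These medians were 0.29 and 0.01 centred and 0.22 and 0.02 with quantile normalization. With 1 library left out the median of the 76 genes was between 0.06 (without caPI3Kalpha TAC 11) and 0.16, and 0.07 without WT sham 6, WT TAC 19 or caPI3Kalpha sham 8. An estimate above 0 here means a load difference that is higher in caPI3Kalpha than in WT hearts. Those with the smallest p were Mrps23 (0.31, SE 0.15, limma adjusted p = 0.498), Mrps25 (0.37, SE 0.18), Mrps2 (-0.46, SE 0.22), Mrpl22 (0.45, SE 0.23), Mrps16 (0.30, SE 0.16) and Mrpl9 (0.25, SE 0.17). Mrps35, which fell in WT hearts, stood at 0.18 (SE 0.16, limma adjusted p = 0.783). The comparisons above share groups of hearts, and their values are set side by side as such.

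Other genes of mitochondrial protein synthesis, from lists of known roles, were counted in WT TAC against WT sham. Of all genes 2.85% passed lower and 13.6% higher there, and with the set term 9.01% and 33.1%. Of 7 subunit genes with other symbols 0 passed (median -0.17, with 6 of 7 below 0; 3 lower with the set term). Among them Dap3, a small subunit protein that binds GTP, averaged 9.62 ± 0.574 RPKM (SD, n = 4) for WT sham against 7.53 ± 1.01 (SD, n = 3) for WT TAC (log2 -0.34, SE 0.12, limma adjusted p = 0.0690).

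Of 13 translation factors and related genes 0 passed (median -0.16, with 11 of 13 below 0; 4 lower with the set term). Gfm1, the mitochondrial elongation factor G, averaged 55.6 ± 7.59 RPKM (SD, n = 4) for WT sham against 43.0 ± 3.02 (SD, n = 3) for WT TAC (log2 -0.36, SE 0.13, limma adjusted p = 0.0787). Tufm, the elongation factor that delivers transfer RNAs, stood at -0.30 (SE 0.27) and at -0.38 with the set term (limma adjusted p = 0.00253). Lrpprc, which stabilizes mitochondrial messages, stood at -0.32 (SE 0.14), Mtif2, an initiation factor, at -0.31 (SE 0.16) and Tsfm, the exchange factor of Tufm, at -0.22 (SE 0.15).

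Of 15 aminoacyl-tRNA synthetases of mitochondria, which load transfer RNAs, 1 fell: Cars2, for cysteine, averaged 9.82 ± 0.263 RPKM (SD, n = 4) for WT sham against 6.77 ± 0.666 (SD, n = 3) for WT TAC (log2 -0.51, SE 0.10, limma adjusted p = 0.00685). In caPI3Kalpha hearts it averaged 10.2 RPKM after sham and 9.35 after TAC. The list's median was -0.08, with 13 of 15 below 0, and all 15 lay below 0 with library medians centred (median -0.27) or with quantile normalization (-0.35).

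Of 17 genes of ribosome assembly and rRNA modification 2 fell (median -0.18, with 13 of 17 below 0). Eral1, a GTPase that chaperones the small subunit RNA, averaged 6.55 ± 0.507 RPKM for WT sham against 4.77 ± 0.208 for WT TAC (log2 -0.42, SE 0.10, limma adjusted p = 0.0206). It did not pass without WT sham 13 (limma adjusted p = 0.0512), WT sham 15 (0.0587) or WT TAC 17 (0.0808). Rnmtl1, a methyltransferase of the large subunit RNA, averaged 7.62 ± 0.858 and 5.37 ± 0.351 (log2 -0.47, SE 0.13, limma adjusted p = 0.0319). It did not pass without WT sham 7 (limma adjusted p = 0.0819), WT sham 13 (0.0712), WT TAC 17 (0.119) or WT TAC 19 (0.0777).

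Scaling moved the other lists likewise. With library medians centred the medians were -0.36 for the 7 subunit genes, -0.35 for the translation factors and -0.37 for the assembly genes, and with quantile normalization -0.28, -0.35 and -0.37.

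Of 6 genes of mitochondrial DNA transcription and upkeep 0 passed, with Tfam at -0.18 (SE 0.19) and Polrmt, the mitochondrial RNA polymerase, at -0.01 (SE 0.24). Of 7 regulators of mitochondrial biogenesis 1 rose, Pprc1, a coactivator related to PGC-1 alpha, from 2.10 ± 0.408 RPKM in WT sham to 3.87 ± 0.404 in WT TAC (log2 0.76, SE 0.17, limma adjusted p = 0.0123; 0.45 and 0.105 with quantile normalization). With the set term 3 of the 7 passed higher and 1 lower. Nrf1 and Myc, also on that list, had no value in the mRNA table under those symbols. Ppargc1a, which encodes PGC-1 alpha, stood at -0.35 (SE 0.13, limma adjusted p = 0.0838), Esrra at -0.11 (SE 0.37), Gabpa, a subunit of GABP, at 0.07 (SE 0.13), and Yy1 at 0.35 (SE 0.14, limma adjusted p = 0.0983).

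For the cytosolic ribosome, which makes the proteins that mitochondria import, 64 of 79 protein genes had estimates above 0 in WT TAC against WT sham. Their median was 0.16, close to the 0.17 of all genes, and it turned to -0.03 with library medians centred. Past the threshold 1 was higher and 1 lower, against 13.6% and 2.85% of all genes. The number higher was 13 without WT sham 6, 3 without WT TAC 1, and 0 without WT sham 7, WT sham 15, WT TAC 17 or WT TAC 19. The 13.6% belongs to the fit of all 11 libraries, and the share in these other fits is not given here. Of the 38 complex I subunit genes 36 lay below 0 (median -0.28), and 6 passed lower, against 2.85% of all genes. With library medians centred 18 passed lower (6.79% of all genes), and 11 did without WT sham 6 (4.38%). The number was 4 without WT sham 7, WT sham 13 or WT TAC 19, and 3 without WT sham 15 or WT TAC 17, fits whose share of all genes is not given here. With the set term 18 cytosolic ribosomal protein genes passed higher (22.8%, against 33.1% of all genes) and 1 lower (1.27%, against 9.01%). In that fit 30 complex I genes passed lower (78.9%, against 9.01% of all genes). The median of the 76 mitochondrial ribosomal protein genes, -0.19, lay between those of the other lists as deposited. With library medians centred it lay between them too, at -0.38 against -0.03 for the cytosolic ribosome and -0.47 for complex I. With quantile normalization it was the lowest of the 3, at -0.32 against 0.07 for the cytosolic ribosome and -0.30 for complex I. Inside the first and second library sets the medians were -0.23 and -0.16 for the mitochondrial ribosome, 0.06 and 0.21 for the cytosolic ribosome, and -0.37 and -0.27 for complex I. The differences between these groups of genes were not tested.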

How the data were processed

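Per the labels, poly-A selected RNA of each left ventricle was sequenced single-end on an Illumina instrument. The authors deposited RPKM for genes whose highest library reached 3 RPKM, printed to 1 decimal. The submitters' processing notes name CASAVA 1.6, Bowtie, Partek 6.5 and mm9. The sources used here give no mapping or strand settings. The 9251 lines included 261 blank, 1 with an error and 2 repeated ones, and the other 8987 genes were kept. Small RNA libraries were not used here.

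Groups were taken from the labels. Log2(RPKM + 0.5) was fitted in limma 3.58.1 (R 4.3.3) as 1 model of 4 groups, with trended eBayes, two-sided tests and Benjamini-Hochberg adjustment over 8987 genes at 0.05. The filter, a mean RPKM of at least 1, took out 0 genes. Fold changes are on the log2(RPKM + 0.5) scale and understate those of low genes. Depth is unknown, so no counting error is given. The labels number separate mice, and p-values rest on 2 to 4 of them a group. Library sets follow the sign of each library on the first principal component. In simulated data of WT TAC against WT sham 80 of 100 genes with a 2-fold fall were recovered and 98 of 100 with a 4-fold rise, with 8 unchanged genes called. In the other 4 comparisons 39 to 60 of 100 with a 2-fold fall were recovered, the fewest for the interaction. A 2-fold fall exceeds every fall of the 76 genes in WT TAC against WT sham, where the largest was -0.51. The simulated libraries also held no library sets. These numbers therefore do not tell how often changes as small as those described here would be recovered.

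Members named in full were the 5 highest and 5 lowest by level, the 6 smallest p per comparison, and a fixed list with known roles. Genes that divide by set, and those on one side of 0 in both sets, were chosen after their values were seen. The members and lists were chosen with earlier results of these data known. Alternatives were other pseudocounts and filters, quantile normalization, centring, the compared groups alone, a set term, each set alone and leaving out each library.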

Additional observations from a re-analysis of the deposited data

Results flagged for a closer look

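For Mrps25 the values of TAC and sham hearts lay in opposite order in the 2 genotypes, though no comparison of it passed. All 3 WT TAC hearts (6.3, 4.9 and 6.0 RPKM) lay below all 4 WT sham hearts (7.2, 7.5, 7.5 and 6.9), while both caPI3Kalpha TAC hearts (7.0 and 7.0) lay above both caPI3Kalpha sham hearts (6.8 and 6.7), by no more than 0.3 RPKM, a separation found for 22.4% of all genes. The interaction was 0.37 on the log2 scale (SE 0.18), with a limma adjusted p of 0.521.

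Among the 4 WT sham values of each of the 76 genes, 1 library stood apart by Dixon's criterion for 4 genes: WT sham 6 as the highest for Mrpl2 (33.1 RPKM), Mrpl34 (31.9) and Mrps28 (27.5), and WT sham 13 as the lowest for Mrpl27 (9.8). Chance gives such a mark in about 1 of 20 groups.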

How the results depend on the processing

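Of the 76 genes, those lower in WT TAC than in WT sham numbered 1 in the fit reported, 10 with quantile normalization, 19 with library medians centred, 27 with the set term, 0 in the first library set alone and 15 in the second alone. Leaving out 1 library gave 1 to 7, with 6 without WT sham 6 and 7 without WT TAC 1. Those higher numbered 0, and 1 with the set term or in the second set alone. Between caPI3Kalpha sham and WT sham, leaving out 1 library gave 0 to 11 higher and 0 to 2 lower. The upper values came without WT sham 6, where genotype and library set coincide. Between caPI3Kalpha TAC and WT TAC 2 were higher centred and 1 with the set term, and leaving out 1 library gave 0 to 15 higher and 0 to 5 lower. Of these, 7 higher and 1 lower came without WT sham 6, and 15 and 5 without WT TAC 1. In the fit without WT TAC 1 the 2 compared groups also differ in library set. Other pseudocounts, filters and fits of the compared groups alone left these counts within 1.5 times. The median of the 76 genes between caPI3Kalpha sham and WT sham, 0.05, was -0.03 with the set term and -0.05 in the first set alone, and Mrpl45 between caPI3Kalpha TAC and sham, -0.25, was 0.03 without caPI3Kalpha sham 5 and -0.52 without caPI3Kalpha sham 8. The cause was not tested. The first set holds 1 WT sham and 1 WT TAC library, and the spread in its fits comes from the 4 caPI3Kalpha libraries. Mrps35 passed lower in WT TAC in every setting run but the first set alone (-0.50 there, limma adjusted p = 0.134). No paired analysis was possible because the mRNA groups share no animal numbers. Read depth is unknown, values carry 1 decimal, and 2 hearts a group limit the caPI3Kalpha comparisons.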
